A study of Sus scrofa with 75 samples.

Results

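A group of 9 glycolytic enzymes that exist as organ-specific isozymes was followed across the pig heart, kidney, liver, lung and spleen: the phosphofructokinases PFKM, PFKL and PFKP, the lactate dehydrogenases LDHA and LDHB, the pyruvate kinases PKM and PKLR, the aldolase ALDOA and the enolase ENO3. They were found by their symbols in the assembled annotation, which gave 9 genes of 35798 in the expression table. The enolases ENO1 and ENO2 were added so that ENO3 could be expressed as a share of its family. Per the labels, all tissue came from male adult pigs of 12 months. The pigs carry the codes BS and DSE, which the labels do not explain, and no treatment or altered allele is named for either code. Short-read RNA sequencing gave 40 libraries, with 4 BS and 4 DSE libraries for each of the 5 organs, after depletion of ribosomal RNA. PacBio sequencing of full-length transcripts gave 1 BS and 1 DSE library for each organ. The series describes the transcriptome of these pigs by organ, and the comparisons are therefore between organs and, within an organ, between BS and DSE.

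Glycolysis splits glucose into pyruvate, and several of its steps are catalysed by isozymes that differ in kinetics, regulation and tissue. Phosphofructokinase commits sugar to the pathway and is a tetramer of muscle (PFKM), liver (PFKL) and platelet (PFKP) type subunits. Aldolase cleaves the doubly phosphorylated sugar: ALDOA is its muscle and general form. Enolase forms phosphoenolpyruvate, with ENO3 as the striated-muscle form, ENO1 the general form and ENO2 the neuronal form. Pyruvate kinase makes pyruvate from it. The gene PKM yields the M1 enzyme of contracting muscle or the M2 enzyme of many other tissues by choosing between a pair of mutually exclusive exons, and PKLR encodes the liver and red-cell enzymes. Lactate dehydrogenase interconverts pyruvate and lactate as a tetramer of LDHA and LDHB subunits, with LDHB the subunit long known from heart muscle.

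In the annotation of the pig genome build susScr11, PFKM (ENSSSCG00000021129) lies on the plus strand at chr5:78475432-78526999, PFKL (ENSSSCG00000028197) on the plus strand at chr13:207167281-207191679 and PFKP (ENSSSCG00000011158) on the minus strand at chr10:67022655-67082449. PFKM overlaps SENP1 and PFKP overlaps PITRM1 on the opposite strand. Whether reads were counted by strand is not given in the sources used here, so reads from these pairs cannot be told apart. ALDOA (ENSSSCG00000032556) lies on the plus strand at chr3:18253384-18260166, ENO3 (ENSSSCG00000017904) on the minus strand at chr12:51954613-51961496, PKM (ENSSSCG00000001930) on the plus strand at chr7:61007142-61032780 and PKLR (ENSSSCG00000026149) on the plus strand at chr4:94537015-94546555. LDHA (ENSSSCG00000013366) lies on the minus strand at chr2:40814165-40827292. The symbol LDHB stands on ENSSSCG00000032557, at chr2:12988755-12990035 on the minus strand, with 1 transcript of 1 exon. RefSeq annotates both a protein-coding LDHB and a pseudogene at that position. An unnamed gene, ENSSSCG00000000576 on the plus strand at chr5:51810943-51831218, has up to 8 exons and coincides with the other RefSeq LDHB. It is described beside the named locus throughout and is called the chromosome 5 LDHB locus. That choice was made after its values were seen.

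Short-read levels are in TPM, a transcript abundance divided by transcript length and scaled to a sum of 1000000 in each library, so levels of different genes can be compared. Their sequencing depth is unknown. The full-length libraries held 119623 to 456783 reads. Summed markers fixed for each organ were highest in that organ: heart-muscle markers such as MYL2, TNNT2 and TNNI3 summed to 35355 to 49612 TPM in hearts and to at most 219 TPM elsewhere, and hepatocyte markers such as ALB to 57501 to 115642 TPM in livers and to at most 1025 TPM elsewhere. The 219 TPM came from a single liver, of pig BS4. The other 7 livers had at most 4.56 TPM of these markers. Results that rest on BS4 liver are given with its own value. In whole organs, fewer cells of a type and less RNA per cell cannot be told apart. The labels do not say that libraries with different numbers came from separate animals, so p-values measure only the spread between these samples.

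Heart stood apart through the muscle isozymes. PFKM, ALDOA and ENO3 were at least 2-fold higher in heart than in each of the other 4 organs, by limma with the largest of the 4 p-values adjusted over all genes. These 3 of 9 members compare with 3.41% of the 16481 genes tested. Liver showed the opposite pattern: PFKM, PFKP, PKM, ALDOA and ENO3 were at least 2-fold lower in liver than in every other organ, 5 of 9 members against 6.49% of all genes. PKLR was the only member at least 2-fold higher in liver than in every other organ (3.57% of all genes). No member was called low in heart (5.09% of all genes), and none was called high or low in kidney, lung or spleen, where 6.27%, 7.64% and 4.98% of all genes were high and 0.431%, 0.091% and 0.68% were low. With unadjusted p-values under 0.05 and no fold limit, 2 members were lowest in heart, and PFKL was the highest-ranked member in kidney and LDHA in lung, 1 member each. PFKL, LDHA and the named LDHB locus were called in no organ. TPM are relative to the rest of each library, and the median gene was 1.06 lower on the log2 scale in heart than in lung and 0.86 lower in liver than in spleen. With libraries rescaled by median ratios, so that the median gene does not shift, PFKM, ALDOA and ENO3 kept the heart call and PKM joined them, whereas only PFKP and PKM kept the liver-low call.

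**Figure D1:**
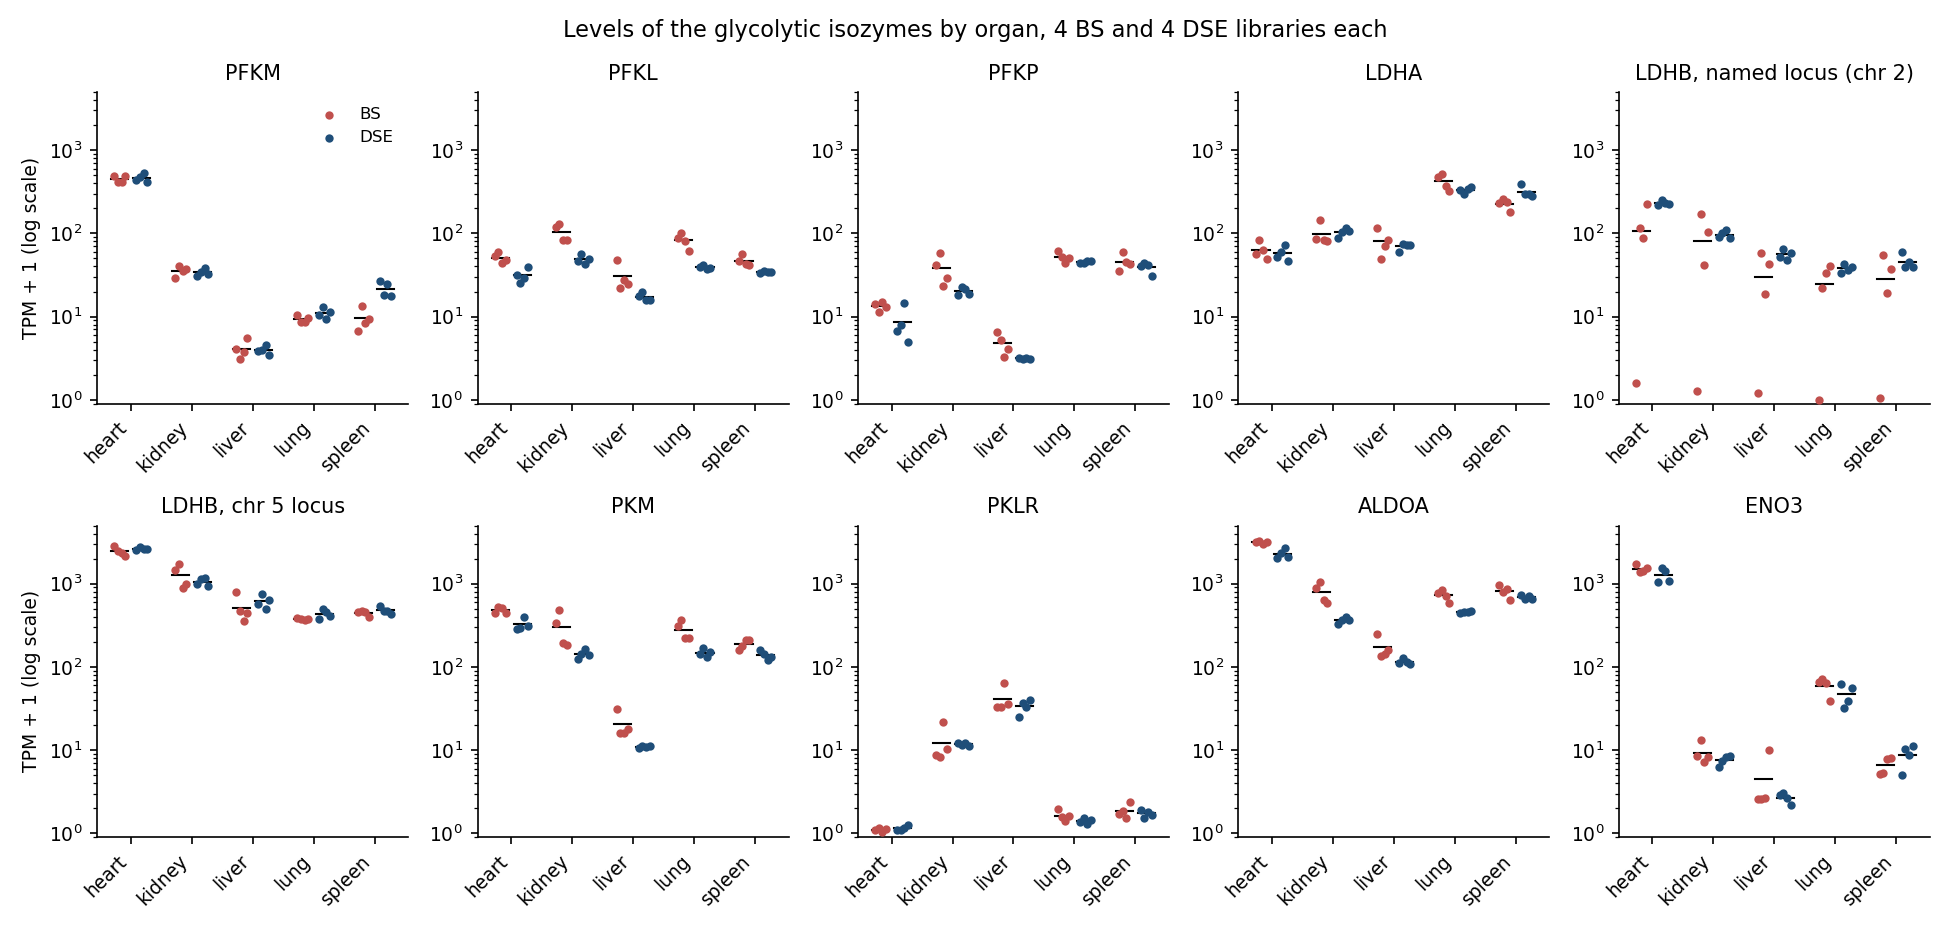
Levels of the 9 members and of the chromosome 5 LDHB locus in each short-read library, as TPM + 1 on a log axis, by organ, with BS left and DSE right in each pair. Points are libraries (4 per group), and the black line is the group mean. PFKM, ALDOA and ENO3 are highest in heart, PKLR is highest in liver, and the named LDHB locus has a BS library near 0 in every organ.

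Among the phosphofructokinases, the muscle subunit prevailed in heart and the liver subunit in liver by short-read TPM. PFKM ranged from 409 to 534 TPM in hearts, with a median of 453, and its medians in the other organs were 33.9 TPM in kidney, 14.6 in spleen, 9.05 in lung and 2.87 in liver. No heart library overlapped another organ. The heart mean of 457 ± 46.2 TPM (SD, n = 8) was 13.2-fold above the kidney mean of 33.8 ± 3.85 TPM on the log2(TPM + 1) scale (log2 difference 3.72 ± 0.12 SE, limma adjusted p = 4.62e-25). Each step down that order also passed, the smallest being spleen over lung (0.47 ± 0.12 SE, adjusted p = 0.000871). That last step lay in the DSE pigs, with means of 20.7 TPM in spleen and 10.05 in lung, beside 8.48 TPM in spleen and 8.35 in lung of the BS pigs.

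PFKL was the most even member. Its means were 75.3 ± 33.9 TPM in kidney, 59.9 ± 25.6 in lung, 40.3 ± 12.2 in heart, 39.7 ± 7.77 in spleen and 23.0 ± 10.6 in liver (SD, n = 8 each). Heart and spleen did not differ beyond their spread (log2 difference -0.015 ± 0.13 SE, adjusted p = 0.937). This order follows TPM scaling: after median-ratio rescaling the lung minus heart difference in PFKL was -0.81 in place of 0.51, and spleen minus liver was -0.33 in place of 0.84. PFKP, the form first described in platelets, had its highest means in lung (47.6 ± 5.77 TPM) and spleen (41.5 ± 8.45), which did not differ (0.21 ± 0.17 SE, adjusted p = 0.289). Spleen was above kidney (28.1 ± 13.8 TPM, adjusted p = 0.000732), kidney above heart (9.97 ± 3.90 TPM, adjusted p = 2.19e-09) and heart above liver (2.96 ± 1.28 TPM, adjusted p = 1.52e-09).

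As shares of the 3 phosphofructokinase genes, which do not depend on scaling between libraries, PFKM made up 90.0% ± 2.85 of heart TPM (lowest 85.5%, highest 93.9%), against 26.8% ± 7.88 in kidney (SD, n = 8 each). PFKL supplied 78.28% ± 4.196 in liver and 53.3% ± 6.93 in kidney. In lung the family was split between PFKL (49.4% ± 9.42) and PFKP (42.2% ± 6.94), with 8.43% ± 2.83 left to PFKM. Spleen had a like make-up, with PFKL at 41.6% ± 6.65 and PFKP at 43.1% ± 3.75. In two-sided exact permutation tests over libraries, adjusted over 110 tests of all families, the PFKM share of heart differed from every other organ by 63.2 to 81.6 percentage points (adjusted p = 0.000241, raw p = 0.000155, the smallest that 8 against 8 libraries allow). The shares that did not differ were PFKM between liver and lung and between liver and spleen, PFKL between kidney and lung and between lung and spleen, and PFKP between lung and spleen.

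**Figure D2:**
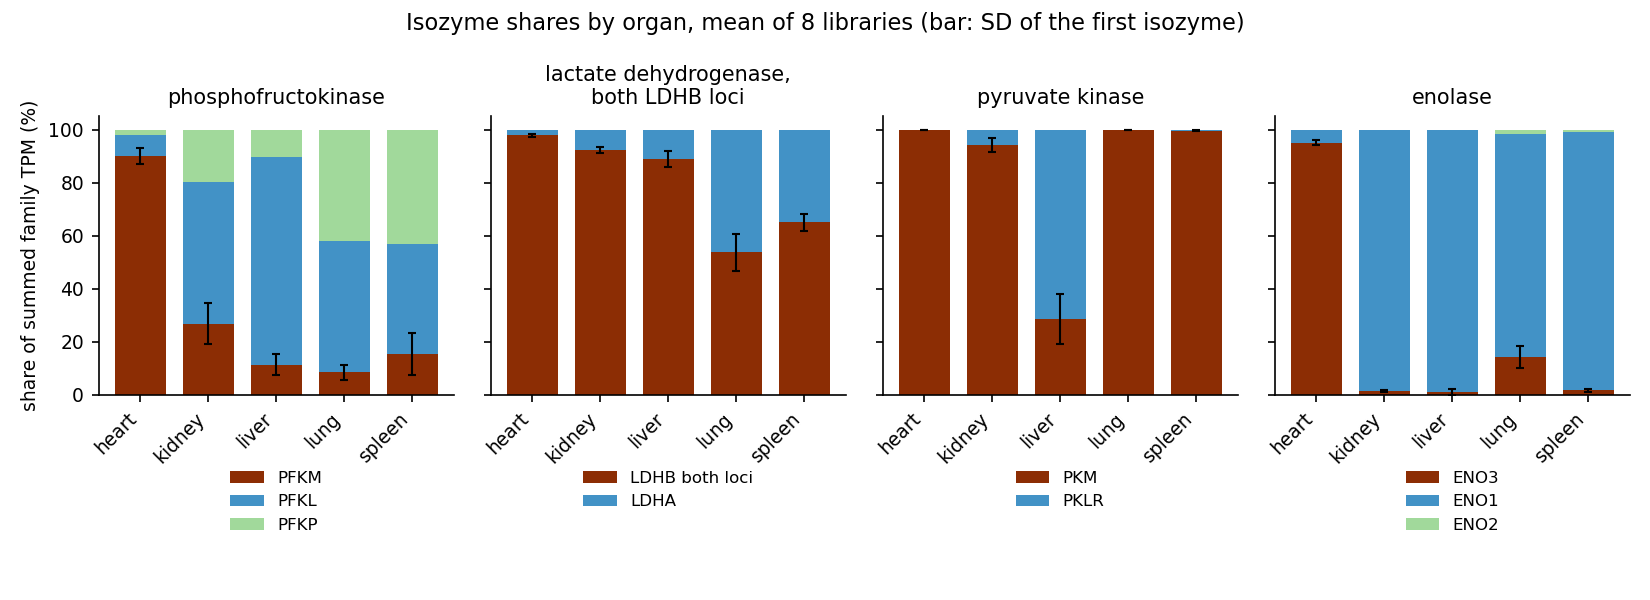
Mean share (%) of each isozyme in the summed TPM of its family, by organ, over 8 libraries, for the phosphofructokinases, lactate dehydrogenases (both LDHB loci summed), pyruvate kinases and enolases. Error bars are the SD of the isozyme drawn at the bottom. Heart bars are filled by PFKM (90.0%), PKM and ENO3 (95.1%), liver bars by PFKL (78.3%), PKLR (71.4%) and ENO1.

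ALDOA, the aldolase of muscle and of most tissues, was far above the other organs in heart and lowest in liver. In heart ALDOA ranged from 2008 to 3249 TPM with a median of 2833, 3.58-fold above spleen, the next organ (1.84 ± 0.11 SE, adjusted p = 4.08e-17). Spleen averaged 749 ± 115 TPM, lung 589 ± 163, kidney 574 ± 267 and liver 142 ± 46.8 (SD, n = 8 each). The difference of lung from kidney, 0.12 ± 0.11 SE on the log2 scale, did not pass the test (limma adjusted p = 0.321), whereas spleen was above lung (0.38 ± 0.11 SE, adjusted p = 0.00335) and kidney above liver (1.93 ± 0.11 SE, adjusted p = 1.4e-17).

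Among the enolases, heart alone was mostly on the muscle form. ENO3 ranged from 1061 to 1722 TPM in hearts, with a median of 1423, whereas the median was 58.4 TPM in lung, 7.20 in kidney, 6.96 in spleen and 1.66 in liver. Heart was 26.8-fold above lung (4.74 ± 0.21 SE, adjusted p = 1.62e-20), and lung was in turn 6.26-fold above kidney (2.65 ± 0.21 SE, adjusted p = 2.33e-13). Kidney and spleen did not differ (0.16 ± 0.21 SE, adjusted p = 0.512). ENO3 thus made up 95.1% ± 1.05 of enolase TPM in heart and 14.2% ± 4.10 in lung, but 1.35% ± 0.293 in kidney, 1.65% ± 0.646 in spleen and 1.13% ± 1.09 in liver. ENO1 supplied most of the rest, with ENO2 at a mean of 1.53% in lung and 0.778% in spleen and less elsewhere. ENO1 was called low in heart (72.3 ± 20.6 TPM, against 225 ± 36.7 TPM in liver, the next organ; 5.09% of all genes). That ENO1 call was lost after median-ratio rescaling.

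BS4 liver set the upper end of the liver values of ENO3. It had 9.04 TPM of ENO3, against 1.21 to 2.04 TPM in the other 7 livers, and its ENO3 share was 3.81%, against 0.543% to 0.677% in the other BS livers. It also had 47.1 TPM of MYL2, 65.4 of TNNT2 and 69.9 of TNNI3, where the other livers had at most 1.55 TPM of any of them, and 4.50 TPM of PFKM, against 2.08 to 3.51 TPM. The part of these heart-muscle markers in the liver values was not tested. The 5 liver-low members were also 5 when all libraries of BS4 were left out.

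For pyruvate kinase, liver was the exception. PKM ranged from 285 to 524 TPM in hearts, and its means were 400 ± 94.5 TPM in heart, 220 ± 126 in kidney, 212 ± 85.4 in lung, 163 ± 32.6 in spleen and 14.6 ± 6.96 in liver (SD, n = 8 each). Kidney and lung did not differ (-0.017 ± 0.15 SE, limma adjusted p = 0.926) and lung and spleen did not pass (0.31 ± 0.15 SE, adjusted p = 0.0776), whereas spleen was 11.05-fold above liver (3.47 ± 0.15 SE, adjusted p = 4.73e-21). PKLR ran the other way, with 24.1 to 62.4 TPM in livers, 7.15 to 20.5 in kidneys and at most 1.37 TPM in any heart, lung or spleen. Liver was 3.15-fold above kidney in PKLR (1.66 ± 0.14 SE, adjusted p = 1.44e-12). PKLR accordingly made up 71.4% ± 9.58 of pyruvate kinase TPM in liver and 5.82% ± 2.82 in kidney, against 0.0337% ± 0.0206 in heart, and all 10 organ pairs of this family passed the exact permutation test, with the largest adjusted p at 0.00197.

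Within PKM, heart used a different exon from every other organ. The annotation holds a pair of adjacent 167-nt exons, chr7:61028764-61028930 and chr7:61029321-61029487, and of the 20 PKM transcripts 6 held the first alone with exactly these ends (M1), 7 the second alone (M2) and 1 both. The other 6 covered one or both of these exons with different exon ends and were left out of the shares. M1 made up 85.1% ± 1.90 of the TPM of M1 and M2 transcripts in heart (lowest 82.0%, median 85.1%, highest 88.1%). The corresponding means were 15.4% ± 2.91 in spleen, 11.5% ± 6.59 in liver, 6.78% ± 1.99 in lung and 1.61% ± 1.16 in kidney (SD, n = 8 each). BS4 liver, the liver with heart-muscle markers, had the highest liver value at 23.8%, where the other 7 livers had 1.78% to 15.4%. Heart differed from all of them by 69.8 to 83.5 points (exact permutation test over 90 transcript comparisons, adjusted p = 0.000636). Kidney was also below every other organ, the least clear being kidney minus liver (-9.91 points, adjusted p = 0.00215). Liver did not differ from lung (adjusted p = 0.119) or spleen (adjusted p = 0.244). In amounts, M1 averaged 335 ± 83.7 TPM in heart and 23.2 ± 3.49 in spleen, and M2 averaged 57.6 ± 12.3 TPM in heart and 209 ± 117 in kidney.

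Full-length reads gave the exon choice molecule by molecule. In the BS and DSE hearts, 591 and 657 reads carried the M1 exon and 84 and 103 the M2 exon, so that M1 made up 87.6% (Clopper-Pearson 95% interval 84.8% to 89.9%) and 86.4% (83.8% to 88.8%). The BS and DSE kidneys had 8 and 2 M1 reads and 447 and 222 M2 reads, or 1.76% (0.762% to 3.44%) and 0.893% (0.108% to 3.19%). Lung had 6.02% in BS and 9.33% in DSE, and spleen 12.5% in BS and 14.7% in DSE. Liver could not be placed, with 5 M1 and 13 M2 reads in BS (27.8%, interval 9.70% to 53.5%) and 0 M1 and 5 M2 reads in DSE (upper limit 52.2%). Intervals cover counting error only.

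**Figure D3:**
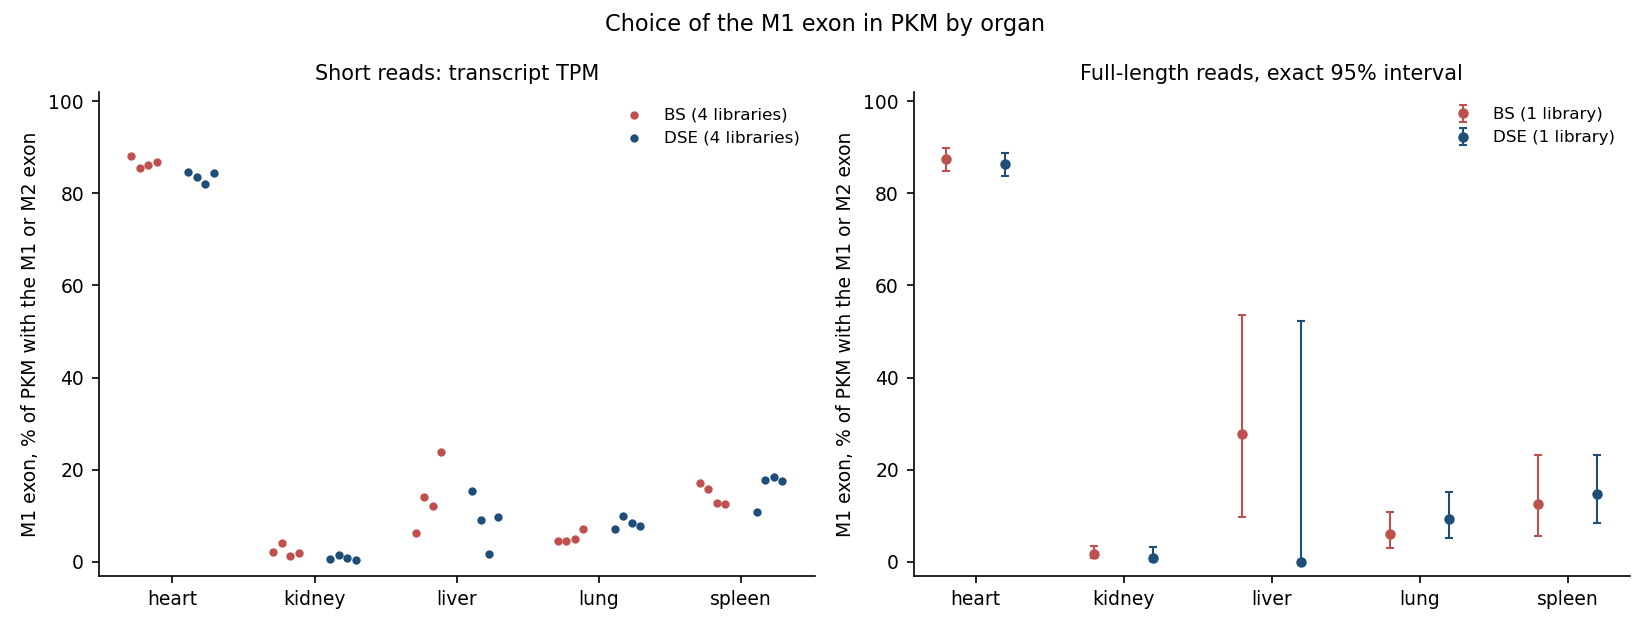
Share (%) of the M1 exon in PKM transcripts that hold the M1 or the M2 exon, by organ, with BS left and DSE right. The left panel shows transcript TPM of each short-read library (4 per group), the right panel full-length reads of 1 library per group with exact 95% intervals. Hearts lie between 82.0% and 88.1% in the left panel, and kidney has the lowest mean there. In the right panel the DSE liver point, at 0%, rests on 5 reads.

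The genes known to steer this exon choice showed no organ-specific call. All 8 listed splicing regulators were tested and none was called high or low in any organ by limma. At an unadjusted p under 0.05 with no fold limit, 3 were lowest in heart, 2 lowest in liver and 1 highest in lung. PTBP1, which represses the M1 exon, had the lowest mean in heart, at 28.99 TPM, beside 52.8 TPM in liver, 132 in kidney, 136 in spleen and 163 in lung. PTBP3, HNRNPA2B1, RBM4 and NEK2 also had their lowest mean in heart, but NEK2 was near 0 in heart (0.099 TPM), kidney (0.12) and liver (0.15). PTBP2, HNRNPA1 and SRSF3 had theirs in liver, where M2 prevailed. These ranks depend on TPM scaling. By TPM the median gene was 1.06 lower on the log2 scale in heart than in lung, and 1.11 lower in liver than in lung. The part of these regulators in the exon choice was not tested.

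For lactate dehydrogenase, the organs differed in the LDHB share whichever locus was read, but the named locus gave unstable values. LDHA was highest in lung (376 ± 78.7 TPM) and spleen (272 ± 61.8), followed by kidney (101 ± 21.9), liver (73.9 ± 20.1) and heart (59.5 ± 12.6; SD, n = 8 each). Lung was above spleen (0.47 ± 0.14 SE, limma adjusted p = 0.00458), spleen was 2.67-fold above kidney (1.42 ± 0.14 SE, adjusted p = 5.56e-11), and liver and heart did not differ (0.29 ± 0.14 SE, adjusted p = 0.0686). Kidney minus liver was -0.56 after median-ratio rescaling, in place of 0.46 in TPM. The named LDHB locus had medians of 221 TPM in heart, 94.1 in kidney, 49.2 in liver, 38.2 in spleen and 33.9 in lung, and no neighbouring pair in that order passed the test, with a standard error of 0.95 on the log2 scale. That fit ignores the pig code, and within the DSE pigs the 3 highest organs did not overlap, with 221 to 247 TPM in heart, 88.1 to 107 in kidney and 47.1 to 64.5 in liver. With the pig code as a block, heart over kidney (0.87, limma adjusted p = 0.000489) and kidney over liver (0.91, adjusted p = 0.000263) passed.

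A single pig code, BS1, stood far below the others. In the 5 organs of BS1 the named locus had 0 to 0.594 TPM, whereas hearts had 115 TPM in BS2, 87.4 in BS3, 224 in BS4 and 221 to 247 in the DSE pigs. The chromosome 5 locus of the same BS1 libraries had 383 to 2866 TPM, beside 360 to 2767 TPM over the other 7 pigs. As a share of both loci, the named locus was at most 0.0266% in BS1, against 4.42% to 10.97% in BS2, 3.64% to 8.27% in BS3, 8.42% to 9.63% in BS4 and 7.22% to 9.70% over the 4 DSE pigs. The share thus differed between BS pigs in every organ, while the DSE pigs lay close together. The named locus had 0 full-length reads in all 10 libraries, which allows 0.657 to 2.51 reads per 100000, whereas the chromosome 5 locus had 1772 reads, of which 1731 lay on PB.7076.1, a transcript that is not in the annotation and was assigned through its locus. How reads of 2 alike sequences were divided between the loci was not tested, and the named locus alone is uncertain as a measure of LDHB.

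**Figure D4:**
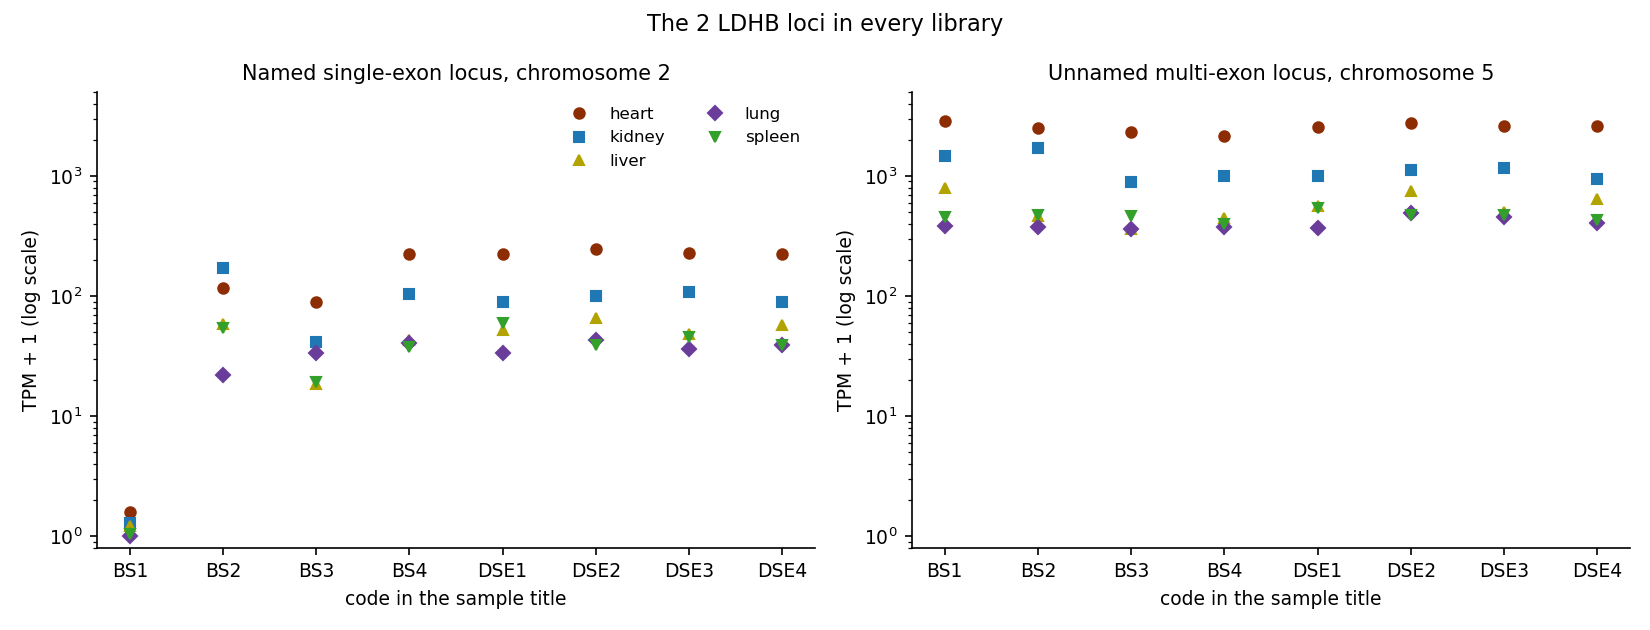
TPM + 1 on a log axis of the named single-exon LDHB locus on chromosome 2 (left) and the unnamed multi-exon locus on chromosome 5 (right) in each of the 40 short-read libraries, by the pig code in the title and by organ (marker shape and colour). BS1 lies at 0 to 0.594 TPM at the named locus in all 5 organs and at 383 to 2866 TPM at the chromosome 5 locus.

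The chromosome 5 locus carried most of the LDHB signal and, like PFKM, ALDOA and ENO3, was at least 2-fold higher in heart than in every other organ. It averaged 2544 ± 233 TPM in heart, 1162 ± 289 in kidney, 565 ± 153 in liver, 462 ± 41.1 in spleen and 402 ± 46.4 in lung (SD, n = 8 each). Heart was 2.23-fold above kidney (1.16 ± 0.12 SE, adjusted p = 1.28e-10) and kidney 2.07-fold above liver (1.05 ± 0.12 SE, adjusted p = 1.24e-09), whereas liver and spleen (0.25, adjusted p = 0.0594) and spleen and lung (0.20, adjusted p = 0.157) did not pass. Full-length reads with TMM scaling placed liver differently. Kidney minus liver was -0.040 (edgeR adjusted p = 0.974) and liver minus spleen 2.50 (edgeR adjusted p = 2.73e-07). The BS and DSE libraries had 325 and 145 of these reads in kidney, 96 and 122 in liver and 19 and 29 in spleen. By TPM, the median gene was 0.69 higher on the log2 scale in kidney than in liver, and 0.86 lower in liver than in spleen. The part of scaling in this difference from TPM was not tested. With both loci summed, LDHB made up 97.8% ± 0.487 of lactate dehydrogenase TPM in heart, 92.4% ± 1.14 in kidney, 88.8% ± 2.97 in liver, 65.0% ± 3.24 in spleen and 53.7% ± 7.02 in lung. All 10 organ pairs differed (exact permutation test over these 10 pairs, largest adjusted p = 0.00357). With the named locus alone the shares were 65.1% ± 27.8 in heart, 42.1% ± 18.3 in kidney, 35.7% ± 17.8 in liver, 11.3% ± 5.57 in spleen and 7.92% ± 4.05 in lung, and heart and kidney (adjusted p = 0.0838), kidney and liver, and lung and spleen did not pass. Heart and liver passed, but no longer without BS3, BS4 or any DSE pig. In full-length reads, the chromosome 5 locus made up 95.05% of its reads and those of LDHA in the BS heart and 91.6% in the DSE heart. In lung it made up 25.6% in BS (interval 18.1% to 34.4%) and 34.1% in DSE (27.1% to 41.7%). In spleen it made up 38.8% in BS and 36.7% in DSE. These lung and spleen values lay below the 53.7% and 65.0% of TPM, which count both loci. LDHA thus led in lung and spleen by full-length reads but not by TPM.

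Full-length reads again put PFKM, ALDOA and ENO3 highest in heart and PKLR highest in liver, but were few for some members. Of the 122 PKLR reads 17 lay on annotated transcripts, and of the 270 PFKL reads 3. The others were assigned through their locus. PFKP had 0 full-length reads in all 10 libraries, so no long-read share of that family includes it. By edgeR's quasi-likelihood test on counts, PFKM, PKM, ALDOA and ENO3 were at least 2-fold above every other organ in heart (4 of the 7 members tested, against 6.47% of 4110 genes), PKM was below every other organ in liver (0.827% of genes) and PKLR above every other organ in liver (6.52% of genes). No other member was called, where 1.48% of genes were low in heart, 3.92% high and 1.24% low in kidney, 1.73% high and 0.122% low in lung, and 2.04% high and 0.56% low in spleen. The chromosome 5 LDHB locus missed the heart call (adjusted p = 0.0683). PFKM had 2178 and 2411 reads in the BS and DSE hearts and 165 and 52 in the BS and DSE kidneys (heart minus kidney 4.66 on the log2 scale, adjusted p = 4.65e-21). ENO3 had 146 and 114 reads in the BS and DSE hearts and at most 4 reads in any other library. The PKLR call rested on few reads, 50 and 21 in the BS and DSE livers and 35 and 16 in the BS and DSE kidneys. It was lost without the BS kidney, BS liver, DSE liver or DSE spleen library and with DESeq2, and the PKM liver call was lost without the DSE liver library. Leaving out a library leaves 1 library in that organ, which is then assumed to vary like those of the other organs. PKM made up 27.5% of PKM and PKLR reads in the BS liver (interval 17.5% to 39.6%) and 19.2% in the DSE liver (6.56% to 39.4%), and 93.0% and 93.4% in the BS and DSE kidneys. ENO3 made up 68.5% and 78.1% of enolase reads in the BS and DSE hearts, below its 95.1% of TPM. In kidney PFKM had 165 of the 241 reads of PFKM and PFKL in BS (68.5%, interval 62.2% to 74.3%). In the DSE kidney it had 52 of 107 (48.6%, 38.8% to 58.5%). By TPM the kidney mean of PFKL was above that of PFKM (75.3 and 33.8 TPM). The cause of this difference was not tested. Elsewhere outside heart these reads were few. PFKM had 13 of 25 in the BS liver (52.0%, interval 31.3% to 72.2%) and 3 of 6 in the DSE liver. It had 18 of 48 and 15 of 47 in the BS and DSE lungs. In the BS and DSE spleens it had 11 of 25 and 33 of 46.

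Transcript levels from short reads and full-length reads named different leading transcripts for some members. For PKM the leading transcript by TPM was PB.10355.16, an M1 form, in heart (75.3% ± 3.85 of PKM TPM) and PB.10355.17, an M2 form with 9 of its 11 exons in common with it, in kidney (67.1%), lung (56.2%), liver (48.7%) and spleen (47.9%). In BS pigs alone another M2 form, PB.10355.35, had the higher mean share in lung (48.0%, beside 42.0% for PB.10355.17), liver (45.7% beside 34.0%) and spleen (43.4% beside 37.9%). PB.10355.16 and PB.10355.17 were also the 2 leading PKM transcripts in full-length reads, with 1294 and 1278 of 2667. For PFKM, PB.7386.8 led in heart (68.6% ± 3.46) and kidney (56.1% ± 9.39), and PB.7386.13, which ends 1947 nt further downstream, led in spleen (61.4% ± 14.5), liver (60.9% ± 10.5) and lung (50.0% ± 11.2). The share of PB.7386.8 in heart differed from kidney by 12.5 points (exact permutation test, adjusted p = 0.0121) and from liver by 67.4 points (adjusted p = 0.000636). In full-length reads PB.7386.8 had 1652 of 4899 PFKM reads and PB.7386.13 had 9, while 2638 reads fell on a PFKM transcript that is not in the annotation. ALDOA was led by PB.4123.13 in every organ (64.0% to 69.9% of TPM), with no organ pair past the test, but that transcript had 3 of 330 full-length reads. PB.4123.1, which starts 1215 nt upstream of it, had 283. ENO3 was led by PB.14737.1 in heart (94.3%), lung (93.7%), kidney (85.0%) and spleen (55.1%) and by PB.14737.5 in liver (43.2% ± 47.5), where ENO3 levels were lowest. PFKL, PFKP, LDHA and PKLR had the same leading transcript in all 5 organs.

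Among the other genes of the pathway, few were called in any one organ. Of 20 other glycolysis genes 16 were tested. Heart had 2 high (3.41% of all genes) and 1 low (5.09%), kidney 2 high (6.27%), lung 2 high (7.64%), liver 1 low (6.49%) and spleen 1 low (0.68%), so that several of these counts lie near the share of all genes. The spleen-low one was LDHD, which was no longer called without BS2. That list includes ENO1. The heart-high ones were PGAM2, the muscle phosphoglycerate mutase (122 TPM, 5.05 on the log2 scale above the next organ), and GAPDH (8629 TPM, 2.11 above). Among the 5 enzymes that set fructose 2,6-bisphosphate, the activator of phosphofructokinase, PFKFB1 was high in liver (29.5 TPM, 4.76 above the next organ), PFKFB3 in lung (36.7 TPM, 1.67 above) and PFKFB4 in spleen (22.4 TPM, 1.65 above). PFKFB4 was also low in liver, a call lost without BS4 or without DSE3. Of all genes, 3.57% were high in liver, 7.64% in lung and 4.98% in spleen, and 6.49% were low in liver. Of 26 genes of pyruvate and lactate handling 21 were tested. Kidney had 7 high (6.27% of all genes). The largest were PCK1, the gluconeogenic carboxykinase (5176 TPM, 2.97 above), and SLC16A3, a monocarboxylate carrier (45.01 TPM, 2.77 above). Liver had 4 low (6.49% of all genes), heart 1 high (3.41%) and 2 low (5.09%), and lung 1 high (7.64%). The high counts of heart and lung lie near the share of all genes. The heart-high one, SLC16A7, lost its call without BS1, BS2, BS3 or DSE4. Kidney was also the high organ of LDHD, which oxidises D-lactate (64.4 TPM, 2.08 above), and lung of the hexokinase HK3 (51.3 TPM, 2.25 above) and the mitochondrial GPD2 (28.0 TPM, 1.53 above).

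Between BS and DSE pigs, PFKL, PKM and ALDOA were higher in BS in 4 of the 5 organs, with the PKM and ALDOA calls in heart lost without some single pigs, and PFKM was lower in BS spleen. Past an adjusted p of 0.05 at any fold, PFKL, PFKP, PKM and ALDOA were higher in BS heart and in BS kidney (4 of 9 members in each, against 15.5% and 19.5% of all genes), and PFKL, PKM and ALDOA in BS liver and in BS lung (3 of 9 in each, against 16.4% of all genes in either organ). In heart 1 of the 4, PFKL, still passed without DSE1 or without DSE4, and 2 passed without DSE2, when PKM and ALDOA did not. PKM in heart also did not pass without BS3. In liver ALDOA did not pass without BS1 (adjusted p = 0.0821). The kidney and lung counts were the same without any single pig. In spleen no member was higher by limma (11.4% of genes; 2 members at an unadjusted p under 0.05) and PFKM was lower (16.8% of genes). Outside spleen no member was lower at an adjusted or unadjusted p under 0.05, where 7.14% of genes were lower in BS heart, 17.1% in BS kidney, 33.1% in BS lung and 8.12% in BS liver. LDHA, PKLR, ENO3 and both LDHB loci passed in no organ. The general enolase ENO1 was also higher in BS heart, kidney, liver and lung. The median log2 difference of the 9 members was 0.46 in liver, 0.33 in lung, 0.27 in heart, 0.25 in kidney and 0.093 in spleen. For all genes it was 0.020 in liver, -0.15 in lung, 0.0083 in heart, 0 in kidney and -0.056 in spleen.

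At 2-fold or more, 4 differences were called. PFKL in kidney had 120, 128, 81.6 and 81.8 TPM in BS and 45.5, 55.6, 41.4 and 48.4 TPM in DSE. Every BS kidney lay above every DSE kidney (log2 1.07 ± 0.18 SE, limma adjusted p = 2.15e-05). ALDOA in kidney had 879, 1044, 631 and 587 TPM in BS and 324, 364, 394 and 365 TPM in DSE, again without overlap (1.08 ± 0.16 SE, adjusted p = 2.3e-06). These 2 of 9 members compare with 2.92% of genes called higher in BS kidney. Of kidney ALDOA, PB.4123.13 averaged 576 TPM in BS and 237 in DSE, and PB.4123.1 averaged 164 and 91.3. PB.4123.13 had 3 of the 330 ALDOA full-length reads. PFKL in lung had 88.2, 98.9, 79.0 and 60.5 TPM in BS and 38.3, 40.7, 36.4 and 37.2 TPM in DSE, without overlap (1.06 ± 0.18 SE, adjusted p = 2.01e-05, 2.53% of genes). PFKM in spleen had 5.77, 12.5, 7.28 and 8.40 TPM in BS and 25.5, 17.1, 23.4 and 16.7 TPM in DSE, so that all BS spleens lay below all DSE spleens (-1.22 ± 0.17 SE, adjusted p = 3.06e-06, 1.37% of genes). No member was called at 2-fold in heart (1.57% of genes higher and 0.309% lower in BS) or liver (2.17% higher and 0.674% lower), none lower in kidney (1.42%) or lung (6.73%), and none higher in spleen (1.48%). The folds of PFKL and ALDOA sat close to the 2-fold limit: without BS2, none of the 3 reached it, with log2 differences of 0.95 for PFKL in kidney, 0.93 for ALDOA in kidney and 0.96 for PFKL in lung.

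PFKM was the only member whose BS minus DSE difference itself varied by organ (limma F test of the interaction, adjusted p = 0.00142, passed by 8.04% of genes). Its differences were -1.22 in spleen, -0.23 in lung, -0.048 in heart, 0.030 in liver and 0.052 in kidney. ALDOA had an adjusted p of 0.0789 in the same test.

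**Figure D5:**
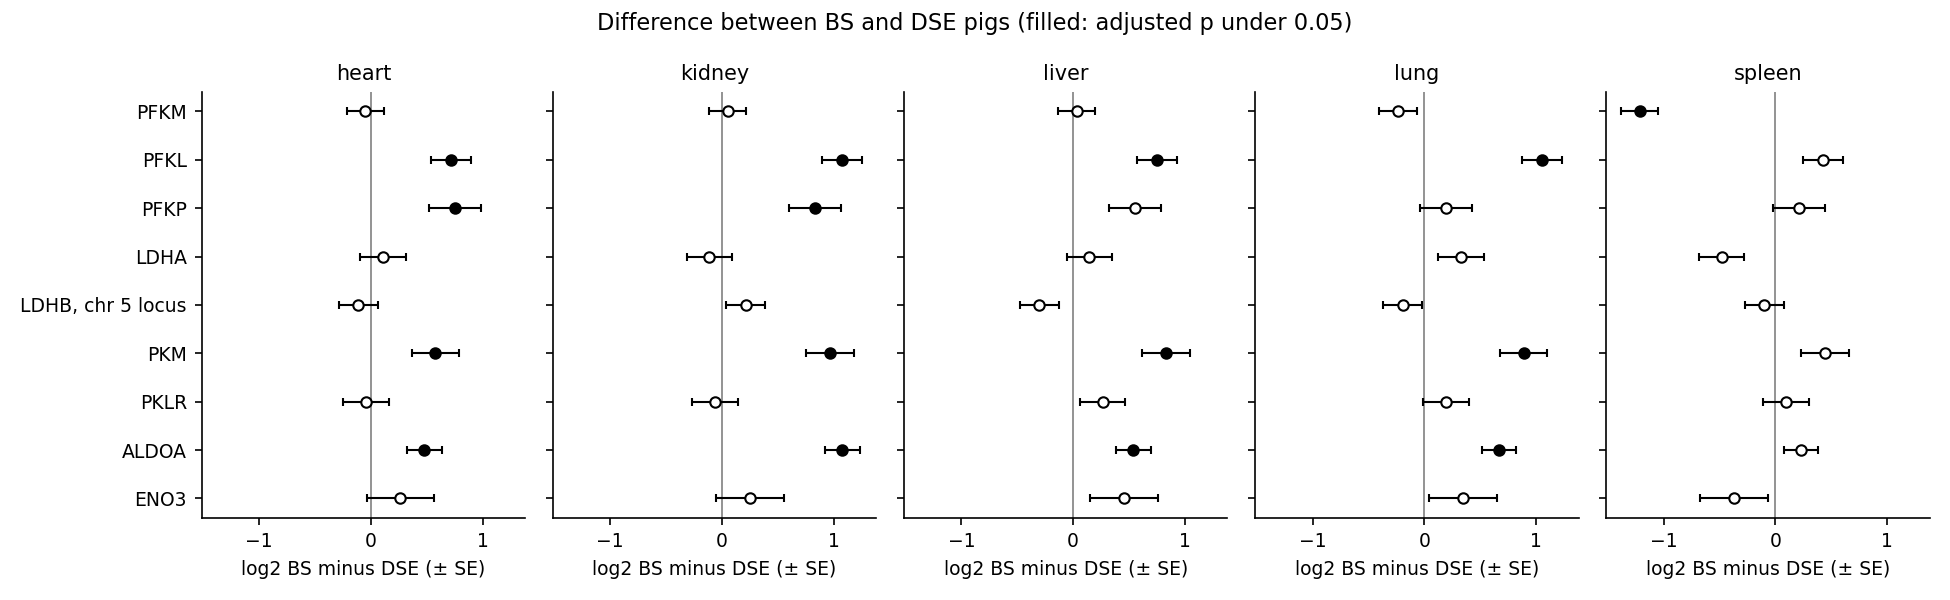
Difference between BS and DSE pigs in log2(TPM + 1), ± SE, for 8 members and the chromosome 5 LDHB locus in each organ, from 4 libraries per group. Positive values are higher in BS, and filled points have a limma adjusted p under 0.05. The named LDHB locus, not drawn, had differences of -2.40 to -1.52 that did not pass. PFKL, PKM and ALDOA are filled and positive in every organ but spleen, where only PFKM is filled, at -1.22.

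Summed cell markers of the pig groups are given beside these differences, without a test. Heart-muscle markers summed to 41827 to 49612 TPM in BS hearts and 35355 to 40048 TPM in DSE hearts, and hepatocyte markers to 57501 to 76817 TPM in BS livers and 76680 to 115642 TPM in DSE livers. Kidney tubule markers summed to 5608 to 8740 TPM in BS kidneys and 4475 to 5032 TPM in DSE kidneys. Lung epithelium markers summed to 56389 to 81989 TPM in BS lungs and 37253 to 51451 TPM in DSE lungs, and the 2 neutrophil markers found summed to 191 to 830 TPM in BS lungs and 121 to 182 TPM in DSE lungs. In spleen, erythroid markers summed to 1037 to 27889 TPM in BS and 677 to 6795 TPM in DSE, and smooth muscle markers to 1790 to 2335 TPM in BS and 1054 to 3804 TPM in DSE. The ranges overlap for the hepatocyte, erythroid and smooth muscle sums. In lung, all 6 epithelium genes and all 2 neutrophil genes had the higher mean in BS. In spleen, all 7 erythroid genes had the higher mean in BS, and 0 of the 5 smooth muscle genes did. The heart-muscle, hepatocyte and tubule lists were split, with 5 of 7 heart-muscle genes higher in BS hearts. Single genes lead some sums, and in the split lists other genes did not follow them. ALB averaged 47448 TPM in BS livers and 68134 TPM in DSE livers, but 2 of the 6 hepatocyte markers, APOA1 and SERPINA1, had the higher mean in BS. UMOD averaged 5521 TPM in BS kidneys and 2810 TPM in DSE kidneys, whereas 2 of the 6 tubule markers went the other way, with LRP2 at 278 TPM in BS and 511 TPM in DSE and CUBN at 117 TPM in BS and 209.8 TPM in DSE. No gene of these lists was at 0 in all libraries of its organ, and their part in the differences of PFKL, PFKM, PFKP, PKM and ALDOA was not tested.

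As shares of their families, none of 55 comparisons between BS and DSE passed after adjustment (two-sided exact permutation tests, smallest adjusted p = 0.105; 15 had an unadjusted p under 0.05; 4 against 4 libraries cannot go below a raw p of 0.0286). The PFKM share was 6.72%, 9.91%, 7.77% and 9.27% in BS spleens and 26.1%, 18.2%, 24.0% and 20.7% in DSE spleens, without overlap. In kidney the PFKM share averaged 20.5% ± 5.18 in BS and 33.2% ± 3.32 in DSE, and the PFKL share 58.9% ± 3.44 in BS and 47.7% ± 3.96 in DSE (SD, n = 4 each). In lung the PFKL share averaged 57.6% ± 5.28 in BS and 41.3% ± 1.19 in DSE. The groups did not overlap in any of these 4 shares, and each had the smallest p the design allows. The M1 share of PKM averaged 86.6% ± 1.11 in BS hearts and 83.7% ± 1.16 in DSE hearts, and 5.24% ± 1.22 in BS lungs and 8.32% ± 1.19 in DSE lungs (adjusted p = 0.0714 for each).

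By short-read TPM, the share of 1 PKM transcript separated the groups outside heart. PB.10355.35, an M2 transcript that starts 11262 nt downstream of PB.10355.16, took 44.2% ± 14.3 of PKM TPM in BS kidneys and 7.64% ± 5.94 in DSE kidneys, 48.0% ± 10.95 in BS lungs and 13.3% ± 7.32 in DSE lungs, 45.7% ± 7.30 in BS livers and 21.9% ± 5.81 in DSE livers, and 43.4% ± 7.04 in BS spleens and 18.6% ± 7.71 in DSE spleens (SD, n = 4 each; exact permutation test, adjusted p = 0.0357 over the 5 organs in each). In hearts it took 13.1% ± 1.14 in BS and 13.5% ± 3.81 in DSE. Its raw p outside heart was 0.0286, as for the family shares without overlap above. It passed because it was adjusted over 5 tests in place of 55. This transcript was chosen after its values were seen, so the test is not independent of the choice. It had 7 of the 2667 PKM full-length reads. In TPM, PB.10355.35 averaged 144 in BS and 10.3 in DSE kidneys, where PB.10355.17 averaged 135 and 121. In lungs PB.10355.35 averaged 138 in BS and 19.7 in DSE, beside 114 and 103 for PB.10355.17. In livers these values were 8.44 and 2.19, beside 7.20 and 6.30. In hearts PB.10355.16 averaged 348 in BS and 250 in DSE. By short-read TPM, the higher PKM of BS kidneys, lungs and livers thus lay mostly in PB.10355.35. The full-length libraries of BS kidney, lung and liver did not show this. They had 5, 0 and 0 reads of PB.10355.35, beside 431, 154 and 13 of PB.10355.17.

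Among the genes most like each member over the 40 libraries, by Pearson correlation of log2(TPM + 1) among 11556 genes, were VDAC3 (0.981) and SLC25A3 (0.978) for PFKM, FAM3A (0.954) and ALKBH5 (0.934) for PFKL, DNTTIP1 (0.967) for PFKP, and ZDHHC3 (0.958) and MYH9 (0.950) for LDHA. PKM was most like A4GALT (0.975) and SPAG7 (0.967), PKLR most like ABCC6 (0.988) and F9 (0.987), ALDOA most like GPC1 (0.970) and PYGB (0.967), and ENO3 most like YBX3 (0.979) and SPATA20 (0.979). The named LDHB locus had no gene above 0.629 (PMS1, then TEFM at 0.616), whereas the chromosome 5 locus reached 0.977 with NDUFB9 and 0.966 with UQCR11. VDAC3 and SLC25A3 are mitochondrial transporters, and NDUFB9 and UQCR11 are subunits of the respiratory chain. The libraries share organs and pigs, so these values describe likeness over 5 organs.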

How the data were processed

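Gene and transcript levels were deposited by the authors as TPM, with columns that sum to 1000000. Full-length counts were deposited by the authors as reads per assembled transcript, without normalization in the values. The build susScr11 and the tools STAR 2.7.10a and Salmon 1.10.1 are named per the submitters' processing notes, and RNA was extracted with Trizol and acid phenol per the labels' protocols. Which step made which table is not given in the sources used here. Another 20 gene, 20 transcript and 5 count columns matched no label and were not used, and samples labelled DT were not analysed here.

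From the TPM, limma 3.58.1 (R 4.3.3) was applied to log2(TPM + 1), with a trended prior variance and 8 libraries per organ, to the 16481 genes that averaged 1 TPM or more in some organ, with Benjamini-Hochberg adjustment over all genes. An organ call needed at least 2-fold against each other organ and an adjusted largest p under 0.05. BS and DSE were compared within each organ in the same fit. Full-length counts were summed per gene (51.9% of reads by their own gene, 35.9% through their locus; 9.10% had no annotated gene and 3.16% a locus with several genes) and tested with edgeR 4.0.16 with TMM, filterByExpr and pig group as a term, where BS and DSE serve as the replicates. DESeq2 1.42.0 was an alternative. Shares were tested by two-sided exact permutation with NumPy 2.4.6, and intervals are Clopper-Pearson at 95% with SciPy 1.17.1. All 9 members and, per organ, up to 3 called genes of the lists, ranked by their fold above the next organ, are named, with the 2 genes most like each member. Some other genes that these rules name are not reported here, and the counts of other glycolysis genes leave them out. The members and lists were chosen with earlier results of these data known. Same-coded libraries of different organs correlated above 0.1 in 47 of 80 cases, and same-numbered BS and DSE libraries in 0 of 20. Numbers were therefore not treated as pairs across BS and DSE. The main organ tests took the 5 organs of a pig code as independent, so their p-values ignore that likeness. With the pig code as a block, limma gave the 9 members the same organ calls. A sign-flip test over 8 pairs cannot go below p = 0.0078, against 0.000155 for the exact permutation test.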

Additional observations from a re-analysis of the deposited data

Results flagged for a closer look

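Of 170 groups of 4 libraries examined, 14 held a library far from the other 3 by Dixon's criterion; chance alone flags about 1 in 20. For LDHA, BS2 kidney had 144.7 TPM (other BS kidneys 79.2 to 85.7), DSE1 liver 58.3 TPM (other DSE livers 71.4 to 72.5) and DSE1 spleen 390.9 TPM (other DSE spleens 281.8 to 299.6). The chromosome 5 LDHB locus had 398.1 TPM in BS4 spleen (others 457.2 to 469.4). PKM had 30.3 TPM in BS1 liver (others 14.8 to 17.2). PKLR had 20.5 TPM in BS3 kidney (others 7.15 to 9.27) and 62.4 TPM in BS3 liver (others 31.8 to 34.8). ENO3 had 9.04 TPM in BS4 liver (others 1.56 to 1.69), and its share there was 3.81% (others 0.543% to 0.677%).

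Among shares, PFKL stood apart in BS1 spleen at 53.4% (others 43.4% to 45.03%) and in DSE3 kidney at 41.8% (others 49.0% to 50.5%), and PFKP in BS1 spleen at 39.8% (others 46.3% to 47.2%). PKM was 99.92% of pyruvate kinase TPM in DSE4 heart (others 99.96% to 99.97%). The M1 share of PKM was 10.8% in DSE1 spleen (others 17.6% to 18.5%). PFKM also stands out because its difference between BS and DSE varied by organ (limma interaction F test, adjusted p = 0.00142).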

How the results depend on the processing

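Calls between organs moved mainly with scaling: median-ratio rescaling left 2 liver-low members in place of 5, and a pseudocount of 0.1 TPM added 1 heart-low member (PKLR) to 0. PKM missed the heart call by its fold alone, with a smallest log2 difference of 0.97 (limma adjusted p = 1.8e-06). It was called high in heart without the mitochondrial genome and without BS1, BS2 or DSE2. At 2-fold, BS above DSE counted 2 members in lung in place of 1 after median-ratio rescaling, and PKM joined PFKL and ALDOA in kidney. Leaving out each pig in turn gave 0 to 1 members in heart (0 with all pigs; 1 without DSE3), 0 to 4 in kidney (2 with all; 1 without BS1, 0 without BS2, 4 without BS3) and 0 to 1 in lung (0 without BS2). In full-length reads, the single liver-high member became 0 with DESeq2, with no filter, with no replicate block and with annotated transcripts only. Leaving out each long-read library gave 0 to 1 liver-high members, 0 to 1 liver-low members and 0 to 1 kidney-high members (1 without the BS kidney, 0 with all). The named LDHB share in heart minus liver was 29.4 points, 26.6 to 33.5 without each pig (past the threshold only without BS1 or BS2), and as a log2 ratio 2.12 (exact permutation p = 0.136). Every other reported share of heart against liver kept its direction and call under the alternatives tried.

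Signs turned in these member differences. With median-ratio rescaling PFKL lung minus heart was -0.81, heart minus spleen 1.05 and spleen minus liver -0.33, PFKP lung minus spleen -0.045, LDHA kidney minus liver -0.56, named LDHB kidney minus liver -0.040, PKM kidney minus lung 0.43, ALDOA lung minus kidney -0.33, and the chromosome 5 LDHB locus BS minus DSE 0.067 in lung and 0.039 in spleen. Without the mitochondrial genome PFKL lung minus heart was -0.065 and heart minus spleen 0.57, LDHA liver minus heart -0.26, PKM kidney minus lung 0.24 and ALDOA lung minus kidney -0.14. With array weights PFKL heart minus spleen was 0.030 and named LDHB heart minus kidney -0.30. Leaving out each pig in turn gave -0.073 to 0.041 for PFKL heart minus spleen, -0.017 to 0.333 for named LDHB spleen minus lung and -0.083 to 0.029 for PKM kidney minus lung. The cause was not tested.

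Number in the title as a replicate block across BS and DSE left 0 spleen-low members in place of 1, since PFKM then had an adjusted p of 0.0574 (limma); the numbers share no stated pairing, and the difference itself was -1.22 in both fits. At any fold the same block left 1 member higher in BS heart in place of 4, 2 in kidney in place of 4 and 0 in liver in place of 3, 0 lower in spleen in place of 1, and gave 1 higher in spleen in place of 0. At any fold, leaving out each pig gave 1 to 4 members higher in BS heart, 2 to 4 in liver, 0 to 1 lower in kidney (1 without BS3) and 1 to 2 lower in spleen (2 without BS2), and leaving out the mitochondrial genome gave 2 higher in heart. With the pig code as a block between organs, liver minus spleen at the chromosome 5 LDHB locus passed (0.25, adjusted p = 0.0348). TPM give no depth, so no counting error can be set for the short-read values, and livers held too few PKM reads for an exon share.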
